A study of Mus musculus with 4 samples.

Results

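Early epithelial identity genes around the adhesion gene Cdh1 were examined in fibroblasts undergoing reprogramming. The 10 genes were listed by symbol for their roles: the adhesion genes Cdh1 and Epcam, the splicing regulators Esrp1 and Esrp2, the transcription factors Grhl2, Grhl3, Ovol1 and Elf3, and the trafficking and polarity genes Rab25 and Crb3. Array probes were assigned to them through the RefSeq accession of each probe. In this way 9 of the 10 genes were matched, with 12 probes, and Grhl3 is not analysed here. Of these, 8 genes were tested among 19171 genes in all, and Ovol1 was too dim to enter the test.

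The cells were mouse embryonic fibroblasts (MEFs) with a p53 null genotype, studied at day 5 after infection with retroviruses. OSK, the name given in the labels, stands in this field for the reprogramming factors Oct4 (gene Pou5f1), Sox2 and Klf4. A first group received OSK and a second group OSK and the zinc finger factor Glis1, with 2 one-colour arrays in each, all 4 on 1 slide. The p53 null genotype, the retroviral delivery and OSK were thus common to all arrays, and no untreated cells were included. The tag for cell type reads embryonic fibroblast for OSK and iPSC, induced pluripotent stem cells, for OSK+Glis1. Whether replicates were separate cultures is not given, so p-values measure only the spread between these arrays, which may be technical.

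Fibroblasts are mesenchymal cells, and their conversion to pluripotent cells passes through a mesenchymal-to-epithelial transition in which Cdh1 and other junction genes are switched on. E-cadherin, the product of Cdh1, joins neighbouring epithelial cells through its extracellular domain. Grainyhead-like and Ovo-like factors activate epithelial genes or repress mesenchymal ones, while Snai and Zeb factors repress Cdh1.

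The scanner called 59.9% to 65.2% of an array's spots well above background and 0 saturated. The Glis1 probe gave no check of the labels: its difference, OSK+Glis1 minus OSK, was -0.21 ± 0.22 SE on the log2 scale (limma adjusted p = 0.598), so directions refer to the arrays as labelled. All 10 fibroblast markers were well above background on every array. Their signals, summed on a linear scale in units of the array's 75th percentile, lay between 423 and 461 in OSK and between 367 and 408 in OSK+Glis1. Single fibroblast markers went both ways, with a median log2 difference of -0.11. Thy1 (-1.78) and Col1a1 (-1.71) were lower and Pdgfra (2.63) was higher (limma adjusted p under 0.05). Of 9 pluripotency markers 8 had a probe, none of them for Nanog. On the OSK arrays 5 and 4 were well above background, against 7 and 8 on the OSK+Glis1 arrays. Their summed levels overlapped, at 2.15 and 1.11 in OSK and at 1.10 and 1.97 in OSK+Glis1. Of the 8 tested, 5 had positive and 3 negative log2 differences, with a median of 1.43. Esrrb, Pou5f1, Lin28a and Dppa3 were higher in OSK+Glis1 (limma adjusted p under 0.05) and 0 were lower, against 6.05% and 8.17% of all genes tested. These 4 entered the test through OSK+Glis1 alone. With only genes detected on all 4 arrays, 3 were tested and 0 were higher. Keratinocyte markers summed to 2.69 and 3.07 in OSK and to 1.00 and 1.67 in OSK+Glis1, with Dsg3 and Ivl not well above background on any array. Of the 5 tested, Krt14 and Trp63 had log2 differences of -3.11 and -1.40. Lor, Krt5 and Krt10 had 1.55, 0.71 and 0.07, and the median was 0.07. Of the leukocyte markers Adgre1 and Itgam, and of the endothelial markers Pecam1 and Tie1, were likewise not well above background on any array, and the summed levels stayed between 0.240 and 0.368 and between 0.925 and 1.62 over the 4 arrays. The part of other cell types in the results below was not tested.

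The epithelial identity genes did not all differ in the same direction. Crb3, Rab25 and Epcam had lower signals on both arrays labelled OSK+Glis1 than on either OSK array, and only Crb3 passed the test (6.59-fold lower). Cdh1, Esrp1, Esrp2 and Grhl2 overlapped between the groups, and Elf3 was slightly higher without passing the test. Thus 1 of 8 tested genes was lower and 0 were higher in limma (adjusted p under 0.05), against 8.17% lower, 6.05% higher and 14.2% in either direction among all genes tested. At an unadjusted p under 0.05, 3 were lower and 0 higher, and 15% of all genes were lower at that level. The groups did not overlap for 3 genes that were lower and 1 that was higher, against 26.6% and 33.4% of all genes. The median log2 difference of the 8 genes was -0.25, and that of all genes was 0.05. The last value depended on the scaling: with arrays centred on their medians it was 0.19 and in the deposited log2 values 0.21. The share of calls that were higher, 42.6% as scaled here, became 53% and 54.4%, respectively. In bulk RNA, fewer cells that carry a transcript and less of it per cell cannot be told apart.

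**Figure D1:**
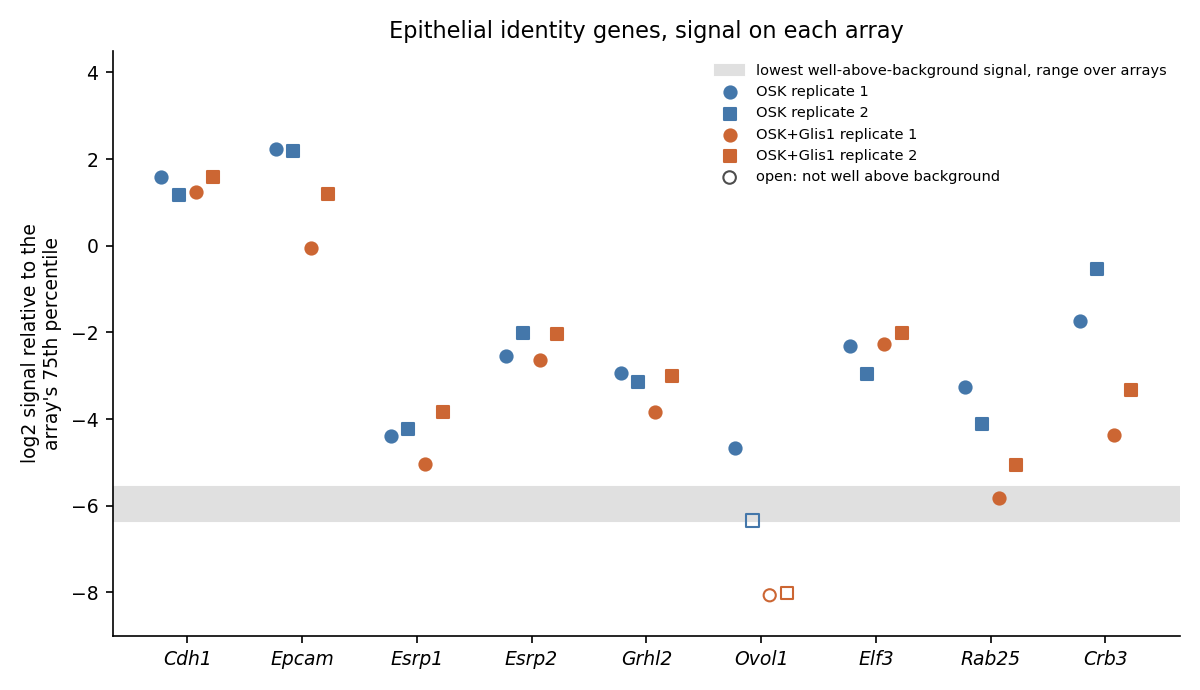
Signal of the brightest probe of each of the 9 matched genes on each of the 4 arrays, as log2 relative to the array's 75th percentile (vertical axis); blue is OSK, orange is OSK+Glis1, circles are replicate 1 and squares replicate 2, and open symbols are not well above background. Crb3, Rab25 and Epcam lie lower on both OSK+Glis1 arrays, while Cdh1 stays between 1.18 and 1.58; heights of different genes come from different probes and cannot be compared.

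The regulatory windows of the genes that were lower without overlap are printed first, with that of Elf3, the gene that was higher, for comparison. RefSeq windows of assembly GRCm38.p6 were matched for 5 of the 10 genes, and the 250 bases before the transcription start are shown 5′ to 3′. For Crb3, 2 start sites were listed and the more upstream is shown. Capitals mark 3 motifs searched on both strands: the E-box CAGGTG, a sequence that Snai and Zeb factors are known to bind, the GC box GGGCGG of Klf and Sp factors, and AACCNGTT, a form of the grainyhead site. The marked matches do not overlap one another.
Crb3, chr17:57061951-57062200, plus strand: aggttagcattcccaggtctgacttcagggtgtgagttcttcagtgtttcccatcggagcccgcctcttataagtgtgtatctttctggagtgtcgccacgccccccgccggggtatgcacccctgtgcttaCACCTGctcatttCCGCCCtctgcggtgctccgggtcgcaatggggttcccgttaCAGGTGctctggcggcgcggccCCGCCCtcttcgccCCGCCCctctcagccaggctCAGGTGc
Rab25, chr3:88548280-88548529, minus strand: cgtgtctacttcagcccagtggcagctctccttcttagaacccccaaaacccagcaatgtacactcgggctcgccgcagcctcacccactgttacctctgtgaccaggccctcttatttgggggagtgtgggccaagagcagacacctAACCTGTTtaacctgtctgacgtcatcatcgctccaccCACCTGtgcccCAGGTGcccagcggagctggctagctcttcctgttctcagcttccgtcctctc
Epcam, chr17:87635729-87635978, plus strand: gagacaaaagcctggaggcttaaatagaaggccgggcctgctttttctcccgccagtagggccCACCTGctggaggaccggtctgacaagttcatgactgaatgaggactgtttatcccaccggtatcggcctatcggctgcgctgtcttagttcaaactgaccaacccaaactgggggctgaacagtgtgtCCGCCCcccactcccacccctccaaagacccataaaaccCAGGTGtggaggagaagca
Elf3, chr1:135258473-135258722, minus strand: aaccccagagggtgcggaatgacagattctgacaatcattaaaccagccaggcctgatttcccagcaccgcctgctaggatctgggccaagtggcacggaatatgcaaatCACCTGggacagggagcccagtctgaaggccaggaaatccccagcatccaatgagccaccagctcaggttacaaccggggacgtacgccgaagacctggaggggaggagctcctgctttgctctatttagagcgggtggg

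The Crb3 window held 3 E-boxes, which began 118, 63 and 7 bases before the start, and 3 GC boxes. In Rab25 there were 2 E-boxes, 64 and 53 bases before the start, and a grainyhead-type match at 102 bases. Epcam had 2 E-boxes, at 187 and 19 bases, and 1 GC box. Elf3 had a single E-box at 140 bases and no match to the other motifs. The fifth window, that of Grhl3, also held 1 E-box, at 19 bases. All 5 windows thus held this E-box, as did 17.2% of 32851 RefSeq windows of the same length. GC boxes were found in 32.7% of all windows and the grainyhead-type match in 1.79%. The GC content of the 4 printed windows lay between 56.4% and 63.2%, above the median of 52.4% over all windows, and E-box content at equal GC content was not compared. A match is a string of letters and not a measured binding site.

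Crb3 encodes a small transmembrane Crumbs protein of the apical membrane, which recruits the polarity proteins Pals1 and Patj. Its signal was -1.73 and -0.53 on OSK replicates 1 and 2, and -4.38 and -3.32 on OSK+Glis1 replicates 1 and 2. In scanner units these signals were 287 and 464 against 40.6 and 95.1. Both OSK+Glis1 arrays were lower than both OSK arrays, although arrays within each group also differed by more than 1 log2 unit. The means were -1.13 ± 0.85 and -3.85 ± 0.75 (SD, n = 2). The log2 difference was -2.72 ± 0.54 SE, with a 95% interval from -4.13 to -1.31 and a limma adjusted p of 0.0365. Over the 14 alternative settings this p ranged from 0.00332 to 0.582, the difference stayed negative, and the call was kept in 9. Leaving out OSK replicate 1, OSK replicate 2 or OSK+Glis1 replicate 1 ended it (adjusted p = 0.0661, 0.137 and 0.107). It was also lost without a filter on dim probes and with the normexp background correction. With normexp and flagged backgrounds replaced the difference was -1.70, a smaller size that still passed.

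Rab25, a small GTPase of the Rab11 family, directs recycling vesicles to the apical membrane of epithelial cells. It stood at -3.27 and -4.11 on the OSK arrays and at -5.82 and -5.06 on the OSK+Glis1 arrays. The groups did not overlap, but the OSK+Glis1 signals lay only 0.54 and 1.07 log2 units above the lowest well-above-background signal of their arrays. The log2 difference was -1.76 ± 0.40 SE (95% interval -2.79 to -0.72), a 3.38-fold lower mean, and its limma adjusted p of 0.0520 missed the threshold. Across the 14 alternatives that p ran from 0.0210 to 0.582 and the difference from -2.18 to -0.77. It passed in 5 of them: with median centring, in the deposited values, with the test limited to genes detected on all 4 arrays, with an intensity trend and under normexp with flagged backgrounds replaced. The difference of -0.77 came from the last of these.

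Epcam encodes a homophilic adhesion protein of the epithelial surface. Its 2 OSK arrays nearly coincided, at 2.24 and 2.18, while the OSK+Glis1 arrays were at -0.05 and 1.19. All signals were bright, and the 2 OSK+Glis1 arrays differed more from each other than the nearer of them did from OSK. The means were 2.21 ± 0.04 and 0.57 ± 0.88 (SD, n = 2). The mean was 3.11-fold lower in OSK+Glis1, with a log2 difference of -1.64 ± 0.43 SE (95% interval -2.76 to -0.51) and a limma adjusted p of 0.0761. Without OSK+Glis1 replicate 1 the difference was -1.02 (adjusted p = 0.101), and without OSK+Glis1 replicate 2 it was -2.26 (adjusted p = 0.0152). The full range of adjusted p over the alternatives was 0.0152 to 0.582.

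Cdh1 itself was at 1.57 and 1.18 on the OSK arrays and at 1.25 and 1.58 on the OSK+Glis1 arrays. The arrays of the groups interleaved, and the signals were 6.74 to 7.78 log2 units above the lowest well-above-background signal. The log2 difference was 0.03 ± 0.23 SE, with a 95% interval from -0.57 to 0.63 (limma adjusted p = 0.944). A missed call does not show that the groups are alike. In simulated data with 200 changed genes, 0.6% of 2-fold changes were called. That share does not give the power of these arrays, where 2726 genes were called and the threshold is less strict. The adjusted p of Cdh1 lay between 0.580 and 0.969 over the alternatives, and the sign of the difference turned in 3 of 14.

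Esrp1 and Esrp2 are paralogous RNA-binding proteins that direct epithelial splice forms. Esrp1 was dim, at -4.38 and -4.22 in OSK and at -5.04 and -3.84 in OSK+Glis1, so that the OSK+Glis1 arrays enclosed both OSK values. Its log2 difference was -0.13 ± 0.42 SE, with a 95% interval from -1.24 to 0.97 (limma adjusted p = 0.872). Esrp2 was at -2.55 and -2.01 in OSK and at -2.63 and -2.04 in OSK+Glis1, almost the same pair of values in each group. Its difference of -0.05 ± 0.30 SE had a 95% interval from -0.84 to 0.74 (limma adjusted p = 0.930). Splice forms were not told apart by these probes.

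Grhl2, a grainyhead-like factor that activates Cdh1 and other junction genes, was at -2.94 and -3.15 in OSK and at -3.83 and -3.0 in OSK+Glis1. The groups overlapped, and the log2 difference was -0.37 ± 0.32 SE (95% interval -1.19 to 0.46, limma adjusted p = 0.516). The other two Grhl2 probes were not well above background on any array, so a single probe carries this result. Elf3, an Ets factor of epithelia, was at -2.32 and -2.95 in OSK and at -2.27 and -2.02 in OSK+Glis1. The lower OSK+Glis1 array exceeded the higher OSK array by very little, and the difference of 0.49 ± 0.27 SE (95% interval -0.21 to 1.19) had a limma adjusted p of 0.315. Under normexp it was negative, at -0.47. Ovol1, a zinc finger repressor of mesenchymal genes, was well above background on OSK replicate 1 alone (-4.68). Its brighter probe read -6.34 on OSK replicate 2 and -8.07 and -8.02 on the OSK+Glis1 arrays, not well above background, and its other probe was not well above background on any array. Without a filter on dim probes its fitted difference was -2.53 ± 0.59 SE with a limma adjusted p of 0.115.

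**Figure D2:**
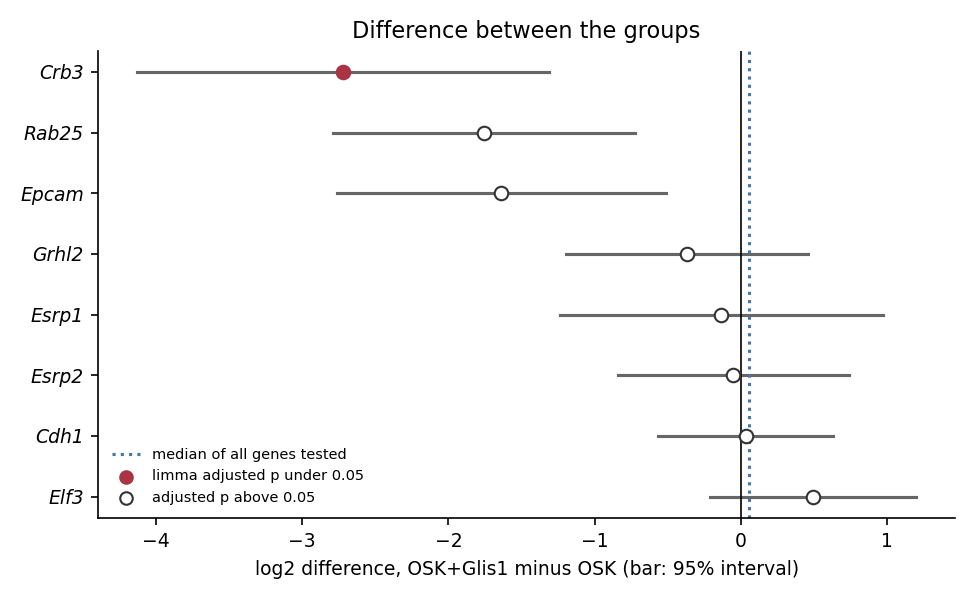
Log2 difference between the group means, OSK+Glis1 minus OSK (horizontal axis), for the 8 tested genes; points are limma estimates from 2 arrays per group, bars are 95% intervals, and the dotted line is the median of all genes tested. Crb3 at -2.72 is the only filled point (adjusted p under 0.05), and the intervals of Rab25 and Epcam also lie below 0 before adjustment.

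The 2 OSK+Glis1 arrays differed from each other across these genes. All 8 tested genes were lower on OSK+Glis1 replicate 1 than on OSK+Glis1 replicate 2, whereas 53% of all genes were. The differences, replicate 1 minus replicate 2, ran from -1.24 for Epcam, -1.21 for Esrp1 and -1.06 for Crb3 to -0.33 for Cdh1 and -0.25 for Elf3. Their median was -0.79, and all genes had a median of -0.02 and an SD of 0.48. Between the OSK arrays 3 of the 8 genes were lower on replicate 1, against 45.8% of all genes, and the median difference was 0.13. The count of 8 was the same with median centring, quantile normalization, the deposited values, and normexp with flagged backgrounds replaced. It was 6 under normexp. The size was less stable, with a median of -0.33 under normexp with flagged backgrounds replaced and -0.18 under normexp. Labels give both arrays the same day, genotype and factors.

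Other lists differed between the same pair of arrays. Among epithelial surface, protease and keratin genes 14 of 15 were lower on OSK+Glis1 replicate 1 (median -0.49; 12 of 15 with median centring). Of the fibroblast markers only 1 of 10 was lower there (median 0.36), and of the repressors of Cdh1 and mesenchymal factors 2 of 12 (median 0.30). Polarity and tight junction genes had 13 of 17 lower (median -0.20) and other epithelial transcription factors 6 of 8 (median -0.20). Adherens junction partners of Cdh1 had 6 of 11 lower (median -0.01) and splicing regulators 3 of 8 (median 0.01). Pluripotency markers had 6 of 8 lower on replicate 1, with a median of -1.06. What this difference between replicates stems from was not tested, and it enters every SD and SE given here for OSK+Glis1.

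**Figure D3:**
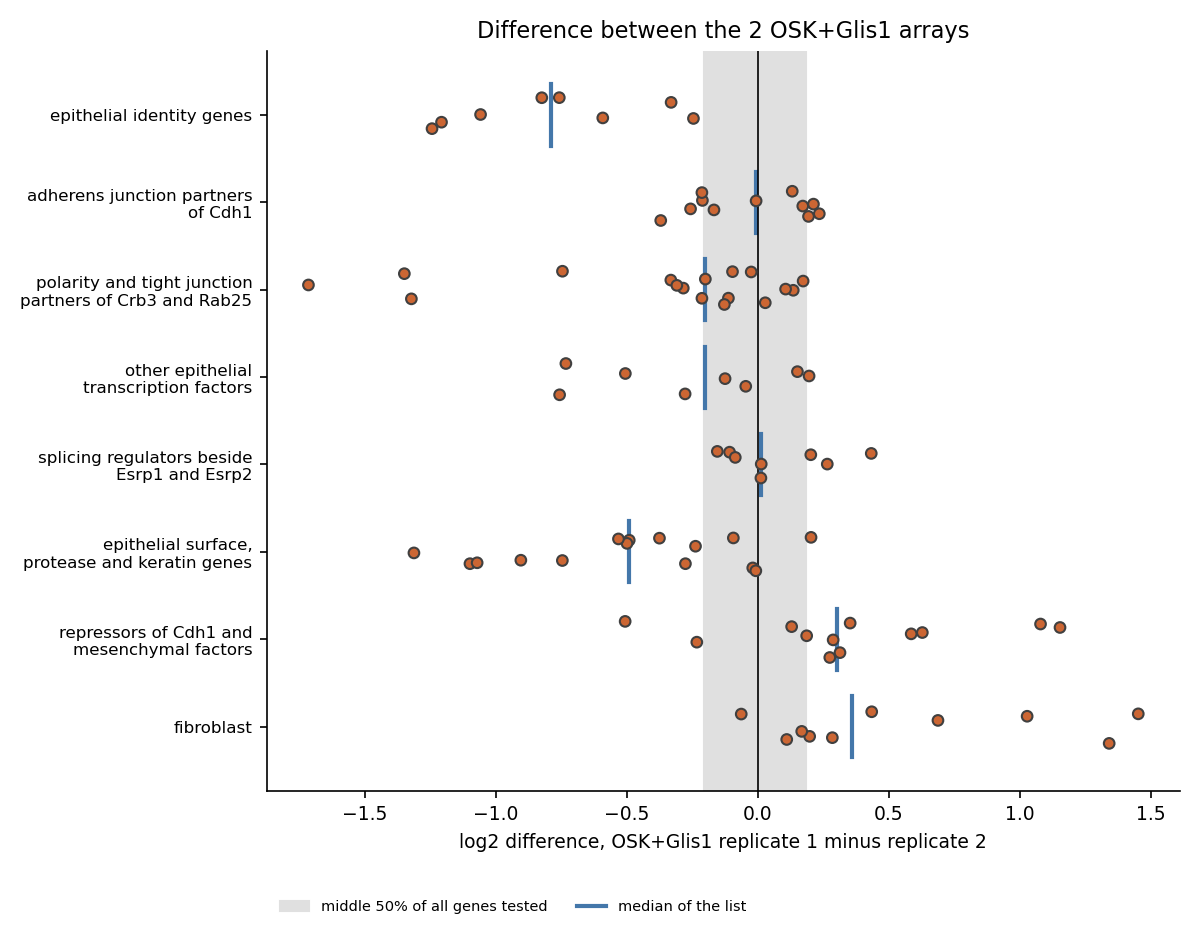
Log2 difference between the 2 arrays labelled OSK+Glis1, replicate 1 minus replicate 2 (horizontal axis), with 1 point per tested gene in each list (rows); the blue bar is the list median and the grey band holds the middle 50% of all genes tested. All 8 epithelial identity genes lie below 0, with a median of -0.79, and 9 of 10 fibroblast markers lie above 0.

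The other genes of the epithelial programme were taken from 6 lists of 81 genes in all, without the genes above; 71 were tested, and 15 were lower and 6 higher. The counts of each list stand against 8.17% lower and 6.05% higher among all genes, and 15% lower at an unadjusted p under 0.05. A count of 1 in lists of this size is near those shares. Polarity and tight junction partners of Crb3 and Rab25 had 5 of 17 lower and 0 higher, with a median log2 difference of -0.25 (at an unadjusted p under 0.05, 7 lower and 2 higher). Ap1m2, the epithelial subunit of the AP-1 sorting adaptor, was at -3.67 and -3.12 in OSK and at -6.33 and -5.01 in OSK+Glis1, and fell 4.83-fold (limma adjusted p = 0.0453). The tricellular junction gene Marveld2 fell 4.58-fold (-2.19 ± 0.21 SE), its relative Marveld3 3.11-fold (-1.64 ± 0.32 SE) and the atypical protein kinase C gene Prkcz 2.30-fold (-1.20 ± 0.16 SE). Ap1m2 and Marveld2 entered the test through OSK alone, being well above background on 1 of the 2 OSK+Glis1 arrays. Marveld2 was at -6.10 and -6.23 on OSK+Glis1 replicates 1 and 2. The lowest well-above-background signals of these arrays were -6.36 and -6.14, so both folds rest on signals near that limit. With only genes detected on all 4 arrays, 4 of 15 genes of this list were lower and 0 higher. F11r, a junctional adhesion gene and the last of the 5, fell 2.16-fold (-1.11 ± 0.20 SE, limma adjusted p = 0.0281). The polarity proteins that Crb3 recruits had values of -0.89 ± 0.20 SE for Patj (limma adjusted p = 0.0524) and 0.24 ± 0.16 SE for Pals1 (listed as Mpp5, adjusted p = 0.395). Rab11a, the relative of Rab25, had -0.22 ± 0.17 SE (limma adjusted p = 0.480). Leaving out OSK replicate 1, OSK replicate 2 or OSK+Glis1 replicate 1 left 1 gene of this list lower in each case, and leaving out OSK+Glis1 replicate 2 left 4.

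Epithelial surface, protease and keratin genes had 5 of 15 lower and 1 higher, with a median of -1.02 (at an unadjusted p under 0.05, 10 lower and 1 higher). With only genes detected on all 4 arrays, 4 of 14 were lower and 1 higher. St14, the membrane protease matriptase, was at 1.27 and 0.78 in OSK and at -2.38 and -1.47 in OSK+Glis1, 7.71-fold lower (limma adjusted p = 0.0102). The claudin gene Cldn7 fell 7.64-fold (-2.93 ± 0.43 SE). Also lower were the claudin gene Cldn3 (-1.28 ± 0.23 SE) and the plakophilin gene Pkp3 (-1.17 ± 0.18 SE). Krt19, a keratin of simple epithelia, rose 7.42-fold (2.89 ± 0.16 SE), from 2.37 and 2.41 to 5.23 and 5.33. Genes lower numbered 1 when either OSK array was left out and 3 when OSK+Glis1 replicate 1 was, with the calls of St14 and Cldn7 lost without either OSK array. The Krt19 call was kept without any 1 array.

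Among other epithelial transcription factors 3 of 8 were lower and 1 was higher, with a median of -0.17. The Ets factor Ehf fell 4.85-fold (-2.28 ± 0.45 SE), the Grhl2 paralogue Grhl1 2.59-fold (-1.37 ± 0.30 SE) and the p63 gene Trp63 2.64-fold (-1.40 ± 0.30 SE). Leaving out OSK replicate 1 or 2 left 0 or 2 genes lower, and leaving out OSK+Glis1 replicate 1 or 2 left 0 or 1.

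The intracellular and lateral partners of E-cadherin went both ways. Of 11 adherens junction genes 1 was higher and 1 lower, with a median of 0.00, and at an unadjusted p under 0.05 there were 3 higher and 4 lower. P-cadherin (Cdh3), not well above background on the OSK arrays, entered the test through OSK+Glis1 alone and was at least 1.59-fold higher there (limma adjusted p = 0.00691 for the fitted difference), but under normexp its sign turned. Its call was also lost under normexp with flagged backgrounds replaced. Nectin1 fell 1.74-fold (limma adjusted p = 0.0450), a call lost without any 1 of the 4 arrays. The catenin genes Ctnnb1 and Ctnna1 had differences of 0.72 ± 0.20 SE and -0.58 ± 0.19 SE (limma adjusted p = 0.0874 and 0.128), and Ctnnb1 passed in 4 of the 14 alternatives. Of 8 splicing regulators beside the Esrp genes 1 was lower and 0 higher, with a median of -0.15. This was Mbnl1, a regulator of muscle splicing, at 2.17-fold (-1.12 ± 0.17 SE), a call also lost without any 1 array. At an unadjusted p under 0.05, 2 of them were lower and 0 higher. The polypyrimidine tract protein Ptbp1 had a difference of 0.08 ± 0.20 SE (limma adjusted p = 0.833).

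Repressors of Cdh1 and mesenchymal factors had 3 of 12 higher and 0 lower, with a median of 0.14 (at an unadjusted p under 0.05, 3 higher and 2 lower). Snai1, a direct repressor of Cdh1, was at -1.92 and -3.23 in OSK and at 0.00 and -0.28 in OSK+Glis1, 5.40-fold higher (2.43 ± 0.46 SE, limma adjusted p = 0.0321). Twist2 rose 3.00-fold (1.59 ± 0.27 SE) and the forkhead factor Foxc2 8.94-fold (3.16 ± 0.31 SE). Values for Zeb1, Zeb2 and Snai2 were 0.14 ± 0.20 SE, -0.05 ± 0.17 SE and -0.10 ± 0.40 SE (limma adjusted p = 0.705, 0.884 and 0.905). Prrx1 and Twist1, lower at the unadjusted level only, had -0.92 ± 0.21 SE and -0.76 ± 0.20 SE (limma adjusted p = 0.0549 and 0.0750). The Snai1 call needed both OSK+Glis1 arrays, and that of Twist2 ended on leaving out any array but OSK+Glis1 replicate 2. Genes higher numbered 1 without OSK+Glis1 replicate 1 and 2 without any other array.

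**Figure D4:**
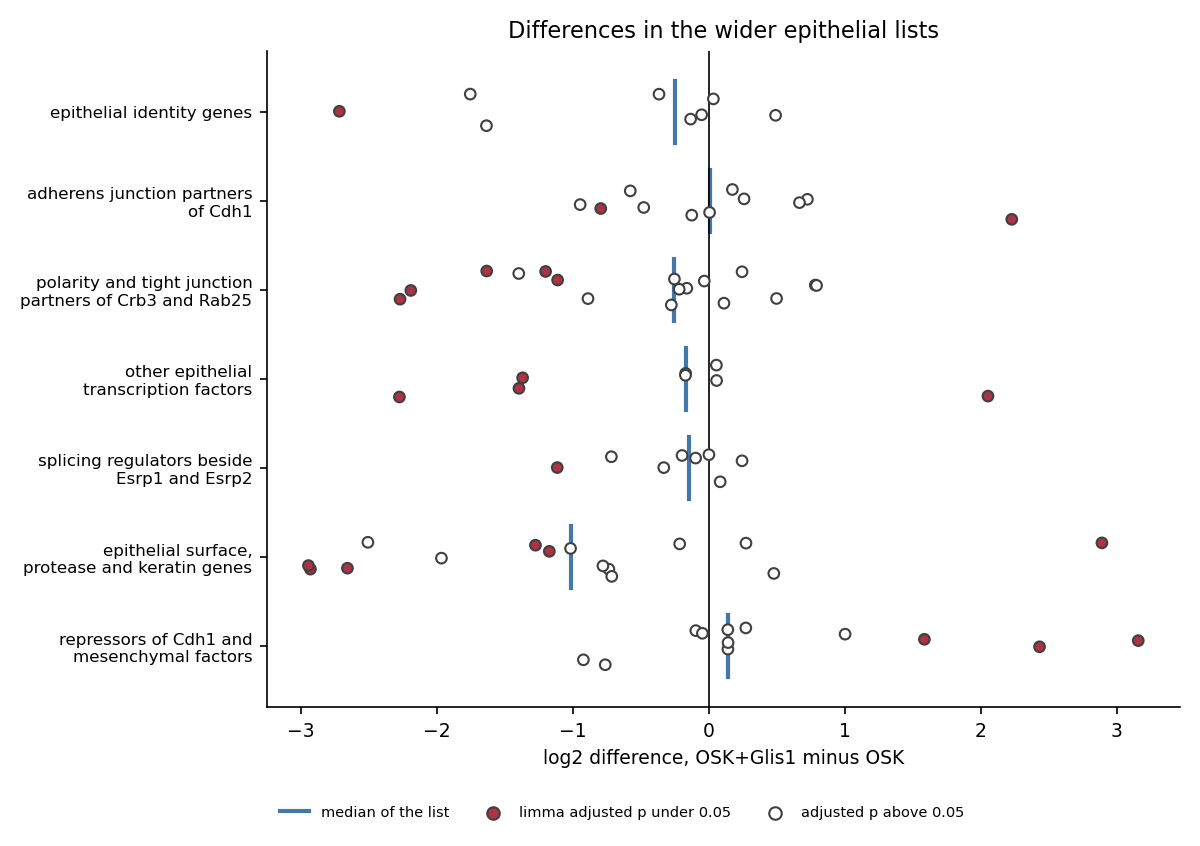
Log2 difference between groups, OSK+Glis1 minus OSK (horizontal axis), with 1 point per tested gene; rows are the 8 epithelial identity genes and the 6 wider lists, filled points passed a limma adjusted p of 0.05 and blue bars are list medians. The lowest median, -1.02, is that of epithelial surface, protease and keratin genes, and adherens junction partners of Cdh1 centre on 0.00.

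Genes with profiles like those of Crb3 and Cdh1 over the 4 arrays were searched for. Likeness was measured as the Euclidean distance between centred log2 profiles, among 12585 other named genes well above background on all 4 arrays. Within a distance of 0.5 log2 units lay 2 genes for Crb3 and 4472 for Cdh1. Profiles were not scaled, so a flat profile such as that of Cdh1 has many near genes and a steep one few. The counts thus follow the size of the differences and cannot be set against each other. The nearest to Crb3 were Mpzl2 (distance 0.20), Ppp1r14d (0.48) and Limch1 (0.66). Mpzl2, an adhesion protein of the myelin protein zero family, was at 3.62 and 4.90 in OSK and at 0.78 and 1.94 in OSK+Glis1. Nearest to Cdh1 were Ino80, Zfp729a and Sdhd, at distances of 0.02, 0.04 and 0.04. With 4 arrays these distances describe the arrays only.

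**Figure D5:**
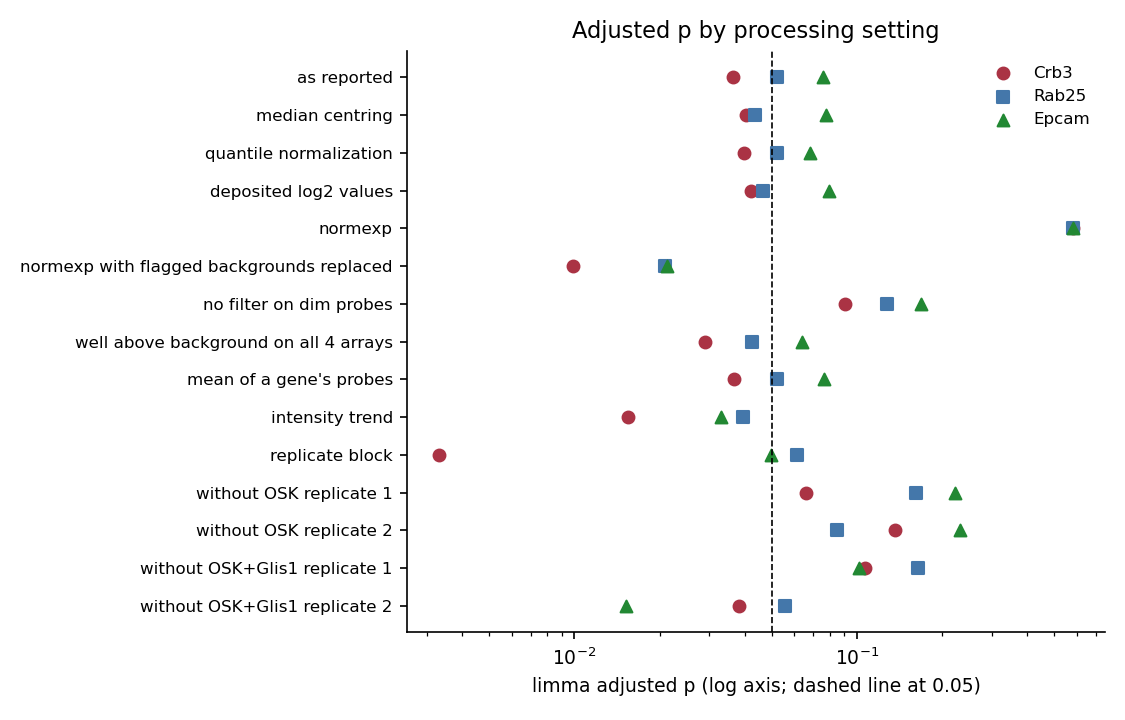
Limma adjusted p (horizontal, log axis) of Crb3 (circles), Rab25 (squares) and Epcam (triangles) as reported and under each of the 14 alternative settings (rows); the dashed line marks 0.05. Crb3 lies left of the line in 9 alternatives, Rab25 in 5 and Epcam in 4.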

How the data were processed

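Each sample is Cy3-labelled total RNA on its own one-colour Agilent array, per the labels. The authors deposited a scanner table per array of intensity values and quality flags; the headers name Agilent Feature Extraction 10.7.3.1. Its processed signal is background-subtracted and detrended, with no scaling between arrays, per the file headers. A deposited series table holds log2 values of unstated processing; 99.8% to 99.9% of its probes lie within 0.01 of the log2 processed signal minus a constant per array, its column medians being 3.1e-06 and -0.00016 (OSK) and 0.000216 and 4.8e-05 (OSK+Glis1).

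Here log2 processed signals were set relative to the array's 75th percentile over non-control spots, and unflagged spots of a probe were averaged. A gene's brightest probe entered the test when both arrays of either group had it well above background. Symbols came from RefSeq accessions (GRCm38.p6), which gave 26901 of 41103 probes a symbol; the file headers name build mm9, so the only coordinates given are those of the RefSeq promoter windows. Groups were compared over all genes with limma 3.58.1 in R 4.3.3 (lmFit and eBayes, two-sided, Benjamini-Hochberg), with 2 residual and 2.82 prior degrees of freedom. A fold is "at least" where neither array of a group had the probe well above background: it sets the bright mean against the higher, on each dim array, of the probe's signal and the lowest well-above-background signal. For normexp the median spot signal was used, since mean spot signals are not used here. Simulated data of 19171 genes, 200 of them changed, gave back 0.6% of 2-fold, 57.5% of 4-fold and 87.1% of 8-fold changes. Of the simulated calls 5.79% were false. Fewer genes were changed than were called on the real arrays (2726), which makes the simulated threshold stricter. Genes were named as all listed epithelial genes and, per wider list, up to 4 genes, called ones first by size and then by level. Grhl1 and Trp63 fall under this rule, while F11r, Cldn3, Pkp3, Prrx1 and Twist1 complete short counts. Patj, Mpp5, Rab11a, Zeb1, Zeb2 and Snai2 were named for their known relation to the listed genes after values were seen. Single genes of the wider lists that the rule would name but the text does not are not reported here. The genes and lists were chosen with earlier results of these data known.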

Additional observations from a re-analysis of the deposited data

How the results depend on the processing

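Calls of Crb3, Rab25 and Epcam lay close to the threshold. The number of the 8 epithelial identity genes that were lower, 1 as reported (Crb3), was 2 with median centring, in the deposited values and with only genes detected on all 4 arrays (Crb3 and Rab25). It was 3 with an intensity trend and under normexp with flagged backgrounds replaced, 0 under normexp and without a filter, and 0 to 2 with 1 array left out. No gene was higher under any of the 14 alternatives. Same-numbered arrays share a replicate number and a further number in the names of their scanner tables, of unstated meaning (correlation of their deviations 0.0094); with the replicate block 2 were lower (Crb3 and Epcam) among 2654 genes called. Over all genes 2726 passed, 0 under normexp (1411 at an unadjusted p under 0.05), 1504 without a filter and 1219 to 1879 with 1 array left out. Under normexp the fitted background mean of OSK replicate 2 was -662.8, against -5.76 to -20.4 elsewhere. In the wider lists 15 were lower: 0 under normexp, 23 with flagged backgrounds replaced, 4 without a filter and 2 to 10 with 1 array left out; 6 were higher, and 0 under normexp. Among the 8 genes, the sign turned for Cdh1, Esrp1, Esrp2, Grhl2 and Elf3, none of which passed the test in any alternative. The log2 difference of Cdh1 was -0.018 under quantile normalization and -0.16 to 0.23 with 1 array left out. That of Esrp1 was 0.0024 with median centring, 0.021 with quantile normalization, 0.018 in the deposited values and -0.74 to 0.47 with 1 array left out, and that of Esrp2 was 0.084, 0.0083, 0.099 and -0.35 to 0.24. Grhl2 ranged from -0.78 to 0.045 with 1 array left out, and Elf3 was at -0.47 under normexp. The causes of these changes were not tested. Signal over background limits Rab25, Esrp1 and Ovol1 most.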
